A study of Rattus norvegicus with 12 samples.

Results

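Fc receptors bind the constant part of antibodies. The 6 genes described here were those listed on the array as Fcgr1a, Fcgr2a, Fcgr2b, Fcgr3a, Fcer1g and Fcgrt, and every probe whose gene name equalled 1 of them was taken, without regard to its signal. They were measured by 10 of 30367 probes, and were 6 of 26612 gene names. Each was followed in dispersed cells of the rat cervix in 4 groups of 3 rats, 1 array per rat.

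The study asked which genes of the cervix, and of its resident macrophages (Mφ), change as the cervix remodels before birth. All rats were adult female Sprague Dawley rats, either non-pregnant in proestrus (NP) or pregnant on day 21 after breeding (D21), the day before birth. The cervix was perfused, cut out and dispersed with collagenase in every rat. In the NP whole and D21 whole groups the dispersed cells were frozen at once. In the NP Mφ-depleted and D21 Mφ-depleted groups, which were other rats, cells were first incubated with the ED1 antibody and magnetic beads, and the cells left behind by the magnet were frozen. Whole and depleted groups therefore differ in the bead procedure as well as in the cells it removed. The cells were not sorted further, so a lower signal may be fewer cells of a type or less RNA per cell, and the arrays cannot tell these apart.

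Levels are given as log2 signal relative to the 75th percentile of the same array, so 0 is the level of that percentile. Levels were never compared between different probes. A difference was called when the unadjusted limma p was under 0.01 and the change at least 2-fold, which is the threshold of the study's methods, and the p adjusted over all genes tested is printed beside it. The 75th percentile itself ran from 290 to 1171 intensity units, and 44.9% to 61.8% of probes were well above background. The dimmest array was NP depleted rat 7. Arrays lay on 4 slides scanned on 3 days. All 6 whole arrays were scanned on the third day, with 1 depleted array of each group.

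Activating Fc receptors recruit kinases through immunoreceptor tyrosine-based motifs. For Fcgr1a (the high-affinity IgG receptor CD64), Fcgr2a and Fcgr3a, these motifs sit on the common gamma chain, the product of Fcer1g, which the mast cell IgE receptor also uses. Fcgr2b is the inhibitory IgG receptor, and its own cytoplasmic motif recruits phosphatases. Fcgrt encodes the heavy chain of FcRn, which pairs with beta-2 microglobulin, takes IgG out of the degradation route and carries it across epithelia and endothelia. Rodent names need care. RefSeq lists "fc-gamma RIII" and Fcgr3 among the older names of rat Fcgr2a, and CD16-2 and Fcgr4 among those of rat Fcgr3a, so the name Fcgr3a here does not denote the same gene as the older Fcgr3.

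The low-affinity receptor genes are close relatives that lie next to each other, so the probes are shown to let a reader see how different the measured stretches were. On the rn4 build, Fcgr2b was read at chr13:86815061-86815120 and at chr13:86809091-86809150, both on the minus strand. Fcgr3a was read at chr13:86877181-86877240 on the plus strand, and Fcgr2a at chr13:86898653-86898712 and chr13:86898530-86898587 on the minus strand. Fcgr2al1, a relative that is not 1 of the 6 genes, was read at chr13:86921132-86921191. Fcer1g lay farther along the same chromosome, at chr13:87119567-87119626 and chr13:87119755-87119814. Fcgr1a was read at chr2:191095045-191095104 and chr2:191096753-191096812, and Fcgrt at chr1:95568453-95568512. The place of each probe within exons was not examined, since no rn4 annotation was used. Probes are written 5′ to 3′ in lower case with nothing marked, and for Fcgr1a and Fcgr2a only the first 30 bases of the brighter probe are given.
Fcgr2b, brighter probe: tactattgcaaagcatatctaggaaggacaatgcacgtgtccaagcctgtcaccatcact
Fcgr2b, dimmer probe: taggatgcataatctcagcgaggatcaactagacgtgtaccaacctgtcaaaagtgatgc
Fcgr3a: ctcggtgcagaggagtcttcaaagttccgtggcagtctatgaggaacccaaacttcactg
Fcgr2al1: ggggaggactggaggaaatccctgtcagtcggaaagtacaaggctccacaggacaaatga
Fcer1g, dimmer probe: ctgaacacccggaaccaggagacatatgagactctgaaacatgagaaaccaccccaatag
Fcgrt: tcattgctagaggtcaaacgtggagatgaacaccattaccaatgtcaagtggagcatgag
Fcgr1a, first 30 bases: gcacaaacttcccaaacttgaccctgaaac
Fcgr2a, first 30 bases: agttgtcctctgacctccacaggtccacca

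Among these probes and the others of the family, 11 in all, the longest run of bases shared by any pair was 9. None shared a run of 20 bases with any other probe on the array. The probes themselves were thus unlike 60-base stretches. They were compared with other probes only, so a match of a probe to a related transcript, full or with mismatches, was not tested. Fcgr1a, Fcgr2a, Fcgr2b and Fcer1g had a pair of probes each, and the brighter of the pair gave the gene's value.

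The 6 genes followed 3 patterns. For Fcgr1a, Fcgr2b, Fcgr3a and Fcer1g, signal in whole cervix exceeded that after Mφ depletion by 11.4-fold or more in both NP and D21 rats. Fcgr2a also lost signal with depletion, 7.66-fold in NP and 2.52-fold in D21. Fcgrt was not called in any comparison. No gene of the 6 was called between D21 and NP whole cervix.

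**Figure D1:**
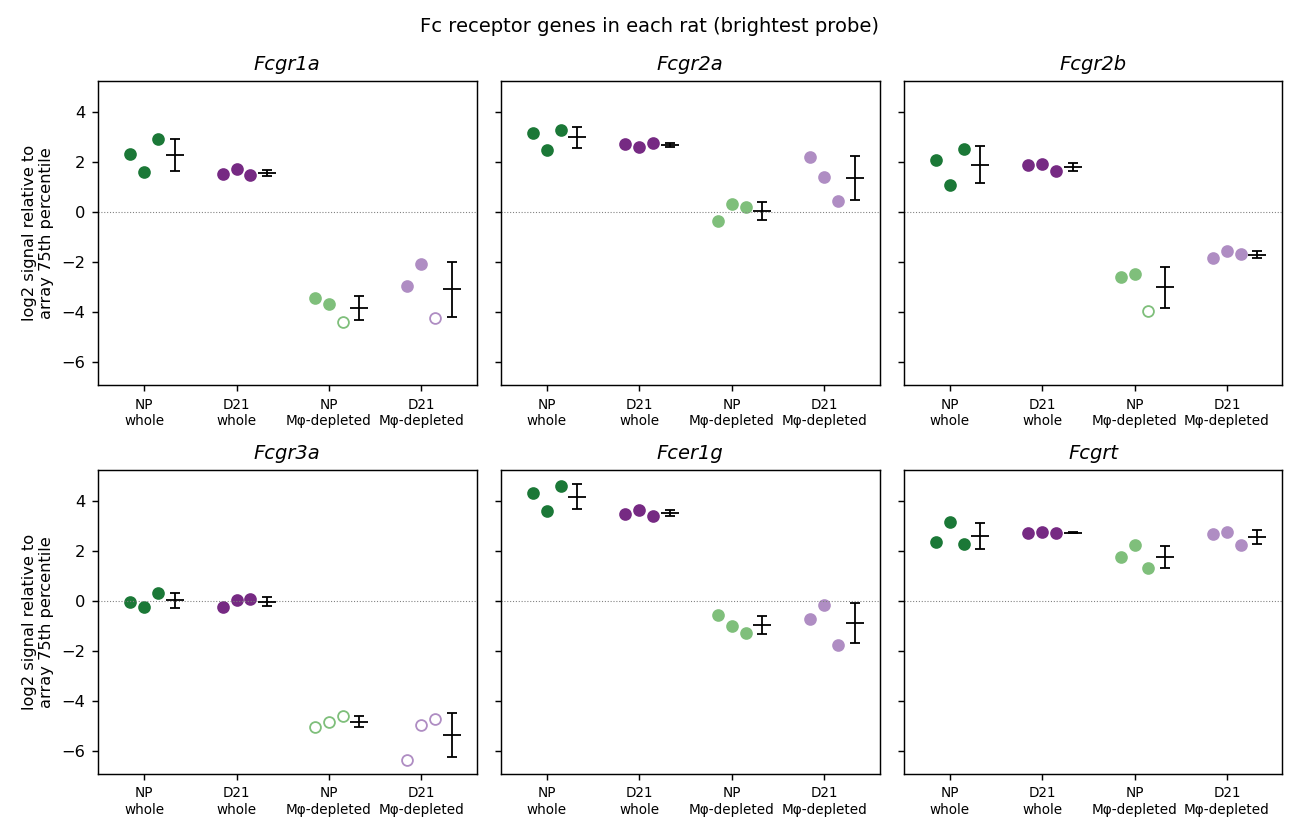
Log2 signal relative to the array's 75th percentile (vertical axis) for the brightest probe of each gene in each of the 12 rats, by group. Filled points are well above background and open points are not, and the bar beside each group is the mean ± SD of 3 rats. All 3 depleted arrays of each group lie below all whole arrays for the first 5 genes compared within NP or within D21, and every depleted Fcgr3a point is open, while for Fcgrt the D21 groups overlap.

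Fcer1g, the shared signalling chain, separated whole from depleted cervix without overlap. Its levels in NP whole rats 8, 9 and 10 were 4.30, 3.59 and 4.60, and in NP depleted rats 5, 6 and 7 they were -0.59, -1.0 and -1.31. In D21 whole rats 5, 6 and 7 they were 3.48, 3.63 and 3.40, and in D21 depleted rats 1, 2 and 4 they were -0.72, -0.17 and -1.76. All 12 arrays were well above background, so both sides of each difference were measured. Whole exceeded depleted cervix by 5.13 on the log2 scale in NP (SE 0.39, 35-fold, adjusted p = 5.73e-06) and by 4.39 in D21 (SE 0.40, 20.9-fold, adjusted p = 7.71e-05). The second probe gave 5.83 and 5.06. Depleted cervix of D21 and NP differed by 0.08 on the log2 scale (95% interval -0.78 to 0.94, adjusted p = 0.924), a difference whose sign turned with the library left out.

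Fcgr1a encodes the receptor that binds single IgG molecules tightly, and its signal came near background after depletion. Its levels were 2.33, 1.60 and 2.90 in NP whole rats 8, 9 and 10, and -3.44, -3.69 and -4.40 in NP depleted rats 5, 6 and 7. In D21 whole rats 5, 6 and 7 they were 1.51, 1.70 and 1.46, and in D21 depleted rats 1, 2 and 4 they were -2.98, -2.07 and -4.24. Groups of whole and depleted rats did not overlap, and 1 depleted array in each group, NP rat 7 and D21 rat 4, was not well above background. The gene was 6.12 higher in whole cervix on the log2 scale in NP (SE 0.50, 69.6-fold, adjusted p = 8.2e-06) and 4.65 higher in D21 (SE 0.50, 25.2-fold, adjusted p = 0.000231). The methods' t-test did not call the D21 difference. The second Fcgr1a probe gave 5.84 in NP and 5.27 in D21. It was well above background on 1 of 3 NP depleted and 2 of 3 D21 depleted arrays, so these sizes are uncertain. The test of the difference between the NP and D21 changes gave -1.47 for the brighter probe (95% interval -3.04 to 0.10, adjusted p = 0.295) and -0.57 for the other.

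Fcgr3a was well above background in whole cervix alone. Its probe read -0.05, -0.25 and 0.32 in NP whole rats 8, 9 and 10, and -0.26, 0.04 and 0.07 in D21 whole rats 5, 6 and 7. None of the 6 depleted arrays was well above background, with readings of -5.05, -4.86 and -4.60 in NP rats 5, 6 and 7 and of -6.37, -4.97 and -4.75 in D21 rats 1, 2 and 4. Each difference is therefore given as an approximate lower bound. For it, a depleted reading under the dimmest signal well above background on its array was raised to that signal. By this bound, whole rats were at least 19.5-fold higher than depleted rats in NP and at least 24.7-fold higher in D21. NP depleted rats 5 and 6 and D21 depleted rat 2 read above that signal without being well above background. Their readings were kept, so both folds are approximate. The bounds were not tested. The limma fit on the readings themselves gave an adjusted p of 5.94e-06 in NP and 1.24e-05 in D21. The gene passed the filter on dim probes only through the whole arrays, so it was not tested between the depleted groups.

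Fcgr2b, the inhibitory receptor, was also lost with depletion, though by its brighter probe it stayed measurable in every D21 rat. Its levels were 2.06, 1.07 and 2.52 in NP whole rats 8, 9 and 10, and -2.62, -2.47 and -3.95 in NP depleted rats 5, 6 and 7. In D21 whole rats 5, 6 and 7 they were 1.88, 1.93 and 1.62, and in D21 depleted rats 1, 2 and 4 they were -1.85, -1.57 and -1.69. The D21 depleted arrays were all well above background and above all NP depleted arrays, of which rat 7 was not well above background. Whole cervix was 4.90 higher on the log2 scale in NP (SE 0.42, 29.8-fold, adjusted p = 1.15e-05) and 3.52 higher in D21 (SE 0.42, 11.4-fold, adjusted p = 0.000457). By an approximate bound, the second probe, with no NP depleted array well above background, gave at least 25.5-fold in NP. In D21 it gave 3.70 on the log2 scale, with 2 of 3 depleted arrays well above background.

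Fcgr2a, the gene also known as Fcgr3, stayed well above background on every depleted array. Its levels were 3.17, 2.49 and 3.29 in NP whole rats 8, 9 and 10, and -0.36, 0.30 and 0.21 in NP depleted rats 5, 6 and 7. In D21 whole rats 5, 6 and 7 they were 2.72, 2.58 and 2.74, and in D21 depleted rats 1, 2 and 4 they were 2.21, 1.38 and 0.45. The D21 depleted rats were spread widely, and rat 1 came close to the D21 whole rats without overlap. Signal in depleted cervix was 13.1% of that in whole cervix in NP (95% interval 7.12% to 23.9%), a log2 difference of 2.94 (SE 0.40, adjusted p = 0.000246). In D21 it was 39.7% (95% interval 21.6% to 72.9%), a log2 difference of 1.33 (SE 0.40, adjusted p = 0.0367). The second probe gave 3.49 and 1.76. The D21 difference was 0.89 without D21 depleted rat 4 and lost its call there, as it did without D21 depleted rat 2 (1.35) or without any 1 of the 3 D21 whole rats (1.30 to 1.38). It was also not called by the methods' t-test, with array weights (0.73), with slide as a block (1.43), in a fit of only the groups compared, or with no filter on dim probes.

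Fcgrt behaved unlike the other 5 genes. Its levels were 2.34, 3.16 and 2.25 in NP whole rats 8, 9 and 10, and 1.74, 2.21 and 1.31 in NP depleted rats 5, 6 and 7. In D21 whole rats 5, 6 and 7 they were 2.69, 2.74 and 2.72, and in D21 depleted rats 1, 2 and 4 they were 2.67, 2.74 and 2.21. The NP groups stood apart by a small gap and the D21 groups overlapped. Whole cervix was 0.83 higher on the log2 scale in NP (95% interval 0.16 to 1.50, adjusted p = 0.0565) and 0.18 higher in D21 (95% interval -0.49 to 0.85, adjusted p = 0.692). Neither was called. The NP difference was called with slide as a block (1.40), with scan day as a block (1.24) and without NP depleted rat 6 (1.06). All 12 Fcgrt arrays were well above background.

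**Figure D2:**
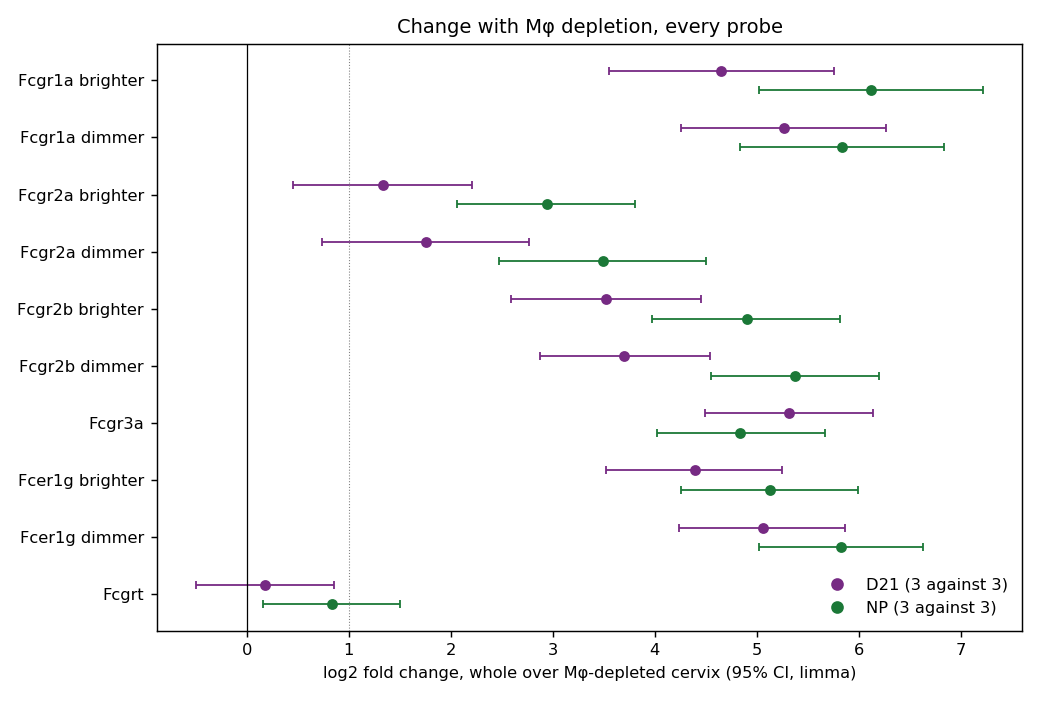
Log2 fold change of whole over Mφ-depleted cervix (horizontal axis) for each of the 10 probes, with 95% limma intervals, in D21 and in NP rats (3 against 3 each). The dotted line marks a 2-fold change. The pairs of probes of a gene gave like values, Fcgr2a lay to the left of the other 4 receptor genes that were called, and Fcgrt lay nearest to 0. Points for Fcgr3a, and for the dimmer Fcgr2b probe in NP, use depleted signals that were not well above background and are not bounds. For both Fcgr1a probes, the brighter Fcgr2b probe in NP and the dimmer in D21, some depleted signals were not well above background.

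In all, 5 of the 6 genes were called higher in whole than in depleted cervix in each state. Of all genes tested in the same comparison, 10% were called higher and 7.71% lower in D21 (14262 tested), and 13.6% higher and 10.8% lower in NP (13419 tested). The median log2 difference of the 6 genes was 3.95 in D21 and 4.87 in NP (3.95 and 4.59 with Fcgr3a at its bound), beside medians of -0.06 and -0.04 over all genes. Groups did not overlap for 5 of the 6 genes in D21 and for 6 of 6 in NP, where 21.3% and 23% of all genes were higher without overlap. Fcgr1a was well above background on 2 of 3 depleted arrays in each state and Fcgr3a on none, so both entered these tests through the whole arrays alone, as Fcgr2b did in NP. On the arrays of the third scan day only, 3 whole arrays against 1 depleted array gave log2 differences in NP of 6.68 for Fcgr1a, 2.77 for Fcgr2a, 5.83 for Fcgr2b, 4.61 for Fcgr3a, 5.47 for Fcer1g and 1.28 for Fcgrt. In D21 the same arrays gave 5.79, 2.23, 3.51, 4.70, 5.26 and 0.51 in that order. The depleted reading of that day was not well above background for Fcgr1a and Fcgr3a in both states and for Fcgr2b in NP. Those sizes are therefore uncertain. The direction was the same within that day for all 6 genes.

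The bead procedure and the removal of other cells moved along with these differences. Of 15 macrophage marker genes, 11 of 15 tested were higher in D21 whole cervix, and in NP 10 of 13 were higher and 1 lower, with median log2 differences of 4.20 and 5.04. Csf1r, the receptor that macrophages need to survive, was 6.74 and 6.68 higher, with depleted readings of which 1 of 3 in each state was well above background. Adgre1, which encodes the F4/80 antigen, was higher by at least 37-fold in D21 and by at least 39.6-fold in NP. Cd68, the gene of the antigen that ED1 binds, was not called, at -0.15 in D21 and 0.54 in NP. Of 8 smooth muscle markers, 6 in D21 and 8 in NP were also higher in whole cervix, as were 2 and 7 of 8 fibroblast markers, and 8 of 9 immediate-early genes were lower in each state. The summed macrophage marker signal was 82.9 to 96.2 times the 75th percentile in D21 whole arrays and 14.1 to 20 times in D21 depleted arrays, with 73.6 to 116 and 11.7 to 19.1 in NP. The part of the bead procedure and of these other cells in the Fc receptor differences was not tested.

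Mast cells carry the IgE receptor, whose gamma chain is also Fcer1g. Of 10 mast cell genes, 9 were on the array and 5 of 7 tested in D21 and 4 of 6 in NP were higher in whole cervix. Cpa3, the mast cell carboxypeptidase, exceeded its depleted level by at least 9.08-fold in D21 whole cervix and by at least 5.69-fold in NP, and none of its depleted arrays was well above background. Kit, which mast cells and other cells express, was instead lower in whole than in depleted NP cervix, at -2.08 on the log2 scale (adjusted p = 0.00863). Fcer1a, the IgE-binding chain, was well above background on 2 of 3 whole arrays in each state and on no depleted array, so that whole cervix was higher by at least 1.55-fold in D21 and by at least 1.28-fold in NP, without a test. For Ms4a2, the beta chain of that receptor, no array gave a signal well above background. How much of the Fcer1g signal came from mast cells was not tested.

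Between D21 and NP whole cervix, 0 of the 6 genes were called, beside 8.47% of the 14063 genes tested. By limma 0 of 6 had an unadjusted p under 0.05, and the methods' t-test also gave 0. The differences, D21 minus NP on the log2 scale with 95% intervals, were -0.72 for Fcgr1a (-1.82 to 0.38), -0.66 for Fcer1g (-1.53 to 0.21) and -0.31 for Fcgr2a (-1.18 to 0.57). They were -0.07 for Fcgr2b (-1.0 to 0.86), -0.06 for Fcgr3a (-0.88 to 0.77) and 0.13 for Fcgrt (-0.54 to 0.81). Adjusted p ran from 0.347 to 0.948. The intervals of Fcgr1a, Fcer1g and Fcgr2a hold a 2-fold lower level in D21, and that of Fcgr2b reaches it, so a change of that size is not excluded for these 4 genes. The NP whole rats were the more variable group for all 6 genes, with SDs of 0.29 to 0.74 against 0.03 to 0.18 in D21, and NP rat 9 had the lowest level of the 3 for Fcgr1a, Fcgr2a, Fcgr2b, Fcgr3a and Fcer1g and the highest for Fcgrt. On the slide that held the 3 D21 whole arrays and NP rat 10, the differences were -1.35 for Fcgr1a, -1.10 for Fcer1g, -0.71 for Fcgr2b, -0.61 for Fcgr2a, -0.37 for Fcgr3a and 0.46 for Fcgrt, each with 1 NP array. The sign for Fcgr2b, Fcgr3a and Fcgrt was not stable to leaving out 1 rat.

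Cells left after depletion were compared between D21 and NP. Macrophages left among them were not measured apart from the other cells. Of the 4 genes that passed the filter, 2 were called higher in D21, beside 5.45% of the 13413 genes tested that were called higher. Fcgr2a was 1.30 higher on the log2 scale (SE 0.40, adjusted p = 0.0962), and Fcgr2b was 1.31 higher (SE 0.42, adjusted p = 0.11). Both met the unadjusted threshold by limma alone. Neither passed an adjusted p of 0.05, which 3.62% of all genes passed in that direction, and the methods' t-test called neither. The Fcgr2b difference uses the reading of NP rat 7, -3.95, which was not well above background. The lowest signal that was so on that array was -2.93, so the size of this difference is uncertain. Fcgrt was 0.78 higher (95% interval 0.12 to 1.45, adjusted p = 0.168). For each of these 3 genes the D21 rats did not overlap the NP rats, by a margin below the printed precision for Fcgrt, and 9.54% of all genes were higher without overlap. Fcgr2al1, the relative outside the 6 genes, was 1.46 higher (adjusted p = 0.144). Its levels were -1.42, -1.18 and -3.49 in NP depleted rats 5, 6 and 7, the last not well above background. In D21 depleted rats 1, 2 and 4 they were -0.60, -0.28 and -0.83.

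These values depended on the array. On the slide that held D21 rat 2 and NP rats 5 and 6, Fcgr2a was 1.41 higher in D21 and Fcgr2b 0.98 higher. On the slide that held D21 rat 4 and NP rat 7, Fcgr2a was 0.24 higher and Fcgr2b 2.25 higher. The Fcgr2b reading of NP rat 7 was not well above background. Rat 1, the D21 array with the highest Fcgr2a, was alone on its slide and scan day. Without it the Fcgr2a difference was 0.87, and without NP rat 7 the Fcgr2b difference was 0.84, neither of them called. The dimmer Fcgr2a probe put rat 2 rather than rat 1 highest, with 1.17, 1.72 and 0.48 in D21 rats 1, 2 and 4, and gave a difference of 1.63.

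Stromal markers differed between the depleted groups in the same direction. The summed signal of 8 fibroblast genes was 316 to 471 times the 75th percentile in D21 depleted arrays and 17.2 to 59.9 times in NP depleted arrays, and 6 of 8 were called higher in D21. Of 8 smooth muscle genes, 5 of 7 tested were higher, with sums of 34.5 to 85.3 and 19.5 to 24.2. The sums of the 15 macrophage genes overlapped, at 14.1 to 20 and 11.7 to 19.1, with 1 of 7 tested called higher. Csf1r was well above background on 1 depleted array of each group, and Adgre1 was on none. The part of the stromal cells, and of macrophages left after depletion, in the Fcgr2a and Fcgr2b differences was not tested. Of 7 phagocytosis and actin genes tested, 1 was called between the depleted groups, with a list median of 0.04. It was Rac2, a GTPase of leukocytes, 4.01 higher in D21 on the log2 scale (adjusted p = 0.00462). Among the activating kinases and adaptors, 2 of 8 tested were higher and 2 lower in D21 depleted cervix. The counts called higher stand beside 5.45% over all genes. The share of all genes called lower is not reported here.

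**Figure D3:**
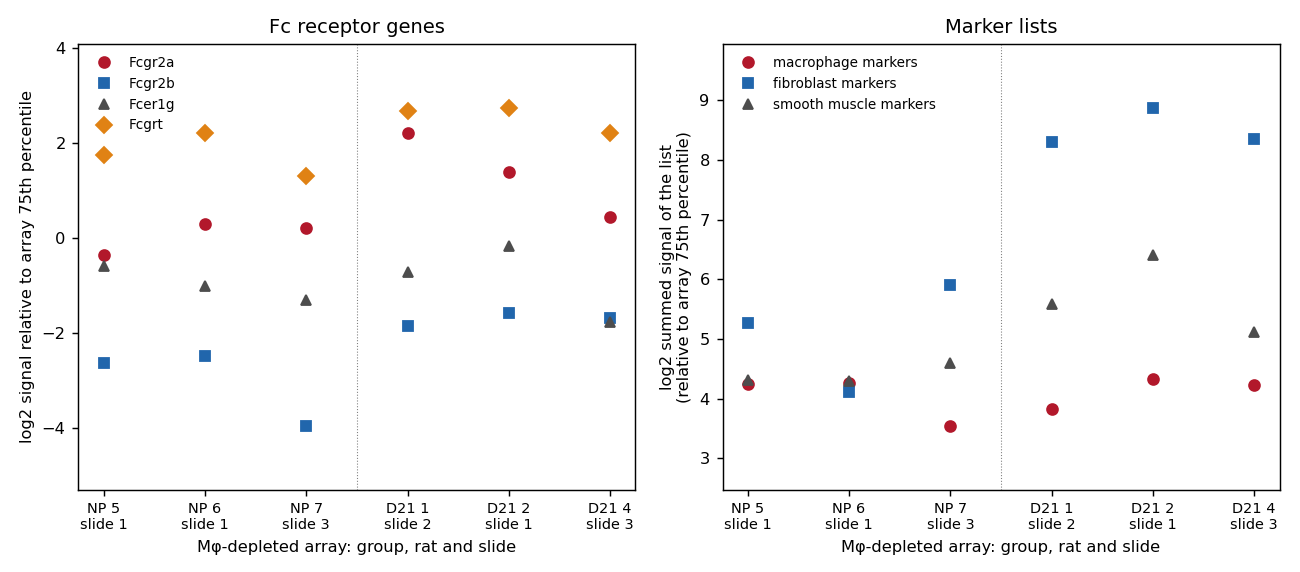
Log2 signal relative to the array's 75th percentile on the 6 Mφ-depleted arrays, each with its rat and slide, for 4 of the genes (left) and for the summed signal of 3 marker lists (right). Fcgr2a and Fcgr2b stand higher in the D21 arrays, Fcer1g does not, and the fibroblast sum is higher in all 3 D21 arrays while the macrophage sums overlap.

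Whether depletion changed a gene by a different amount in D21 and NP was tested directly. None of the 6 genes was called by limma, beside 7.44% of the 14572 genes tested, and 2 had an unadjusted p under 0.05. The difference of differences, D21 minus NP, was -1.60 for Fcgr2a (95% interval -2.85 to -0.36, adjusted p = 0.161) and -1.38 for Fcgr2b (95% interval -2.70 to -0.06, adjusted p = 0.244). It was -1.47 for Fcgr1a, -0.74 for Fcer1g, -0.65 for Fcgrt and 0.47 for Fcgr3a. No depleted Fcgr3a signal was well above background. Nor was that of NP depleted rat 7 for Fcgr1a and Fcgr2b, or of D21 depleted rat 4 for Fcgr1a. The dimmer Fcgr2b probe gave -1.67 (adjusted p = 0.132), which met the 2-fold and unadjusted threshold when probes were fitted one by one. For that probe no NP depleted array and 2 of 3 D21 depleted arrays were well above background, so its value is uncertain in size. Without D21 depleted rat 4, or without NP whole rat 9, 2 of the 6 genes were called.

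The genes downstream of the receptors were taken from lists of the pathway. A log2 difference of a gene that was well above background on only some depleted arrays uses the readings of all 3, and is less certain in size. Of the adaptors related to Fcer1g, both of the 2 tested were higher in whole cervix in D21 and in NP. Tyrobp, which encodes DAP12, was 4.55 higher in D21 (adjusted p = 0.00107) and 5.59 higher in NP (adjusted p = 6.84e-05), and Hcst, which encodes DAP10, was 3.1 and 3.26 higher. Of the receptors that signal through Fcer1g, 4 of 5 tested were higher in each state. Clec4a3, a C-type lectin, was 5.32 and 5.85 higher, measured on 2 of 3 depleted arrays in D21 and 1 of 3 in NP. Pira2, a paired immunoglobulin-like receptor, was higher by at least 19.5-fold in D21 and at least 17.4-fold in NP, with no depleted array well above background, whereas Il3ra, an interleukin-3 receptor chain, was at -0.67 and -0.16. Clec4e, the lectin Mincle, was below that level everywhere, with 0 arrays well above background.

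Kinases and adaptors of the activating arm were mixed. Of 18 such genes, 5 of 13 tested were higher in D21 whole cervix, and in NP 7 of 13 were higher and 2 lower. Btk was at least 3.78-fold and at least 6.88-fold higher, since no depleted array was well above background. Syk, the kinase that docks on the phosphorylated motifs, went the other way in NP, at -1.16 (adjusted p = 0.0224), and was at -0.18 in D21 (adjusted p = 0.731). For Lyn, a Src-family kinase, 0 arrays were well above background.

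On the inhibitory arm, of 9 phosphatases and adaptors, 2 of 9 tested were higher and 1 lower in D21 whole cervix, and 2 of 7 were higher in NP. Dok3, an adaptor of myeloid and B cells, was 3.09 and 3.72 higher. Inpp5d, which encodes the phosphatase SHIP that Fcgr2b recruits, was at 1.30 in D21 (adjusted p = 0.11) and 0.65 in NP (adjusted p = 0.396), and Ptpn6, which encodes SHP-1, was at 0.31 and 0.74. Neither was called. The shares called higher in these lists stand beside 10% in D21 and 13.6% in NP over all genes.

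Effector genes of phagocytosis and oxidant production split in a similar way. Of 12 phagocytosis and actin genes, 4 of 9 tested were higher in each state, among them Myo1f, a myosin of leukocytes, at 3.55 and 3.70. Rac2 was 3.05 higher in NP (adjusted p = 0.00387) and at -0.33 in D21 (adjusted p = 0.73). Of 5 NADPH oxidase genes, 2 of 4 tested were higher in each state. Cybb, the catalytic subunit of the phagocyte oxidase, was 5.95 higher in D21 (adjusted p = 0.000137), where 1 of 3 depleted arrays was well above background. In NP, where none was, Cybb was at least 33-fold higher, and the limma fit on the readings themselves gave an adjusted p of 2.76e-05. Ncf1, its cytosolic partner, was 2.41 and 3.97 higher, and was the 1 gene of these 5 called lower in D21 than in NP whole cervix, at -1.32 (adjusted p = 0.0872).

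Other Fc receptors were mostly dim. Of 11 listed, 10 were on the array. Of those tested, 2 of 7 were higher in D21 whole cervix and 2 of 5 in NP. Fcrl2, an Fc receptor-like gene, was 6.45 higher in D21 (adjusted p = 1.24e-05) and 7.03 in NP (adjusted p = 2.21e-06). Fcmr, the IgM receptor, was 4.16 and 2.91 higher. Pigr, which carries IgA and IgM across epithelia, was 2.61 higher in D21 than in NP whole cervix (adjusted p = 0.0387) and was not called with depletion. Of the antibody genes and other ligands listed, 3 of 10 were found by name and none passed the filter.

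Of 9 genes for the light chain of Fcgrt and its route through endosomes, 8 were on the array, and 1 of 8 was higher in D21 whole cervix and 1 of 8 lower in NP, beside 10% higher in D21 and 10.8% lower in NP over all genes. B2m, the light chain, was at 0.13 in D21 (adjusted p = 0.883) and 1.38 in NP (adjusted p = 0.0807), neither called. Rab5a, a GTPase of early endosomes, was 2.48 higher in D21 whole cervix (adjusted p = 0.032). Rab25, a GTPase of epithelial recycling endosomes, was at -1.31 in NP (adjusted p = 0.00367). Cdh1, the epithelial cadherin, was also lower in whole than in depleted cervix, at -1.02 in D21 (adjusted p = 0.0104) and -1.91 in NP (adjusted p = 7.12e-05). With it, 3 of 8 epithelial markers were lower in D21 and 5 of 8 in NP. Of 8 endothelial markers, 2 of 8 tested were higher in D21 whole cervix, and in NP 2 of 7 were higher and 1 lower, with median log2 differences of 0.55 and 0.27. Among them Pecam1 was at -0.58 and -0.29, not called, and Emcn was 1.70 and 1.86 higher. Markers of epithelium and endothelium were thus measured in the depleted preparations, as Fcgrt was, and their part in its signal was not tested.

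**Figure D4:**
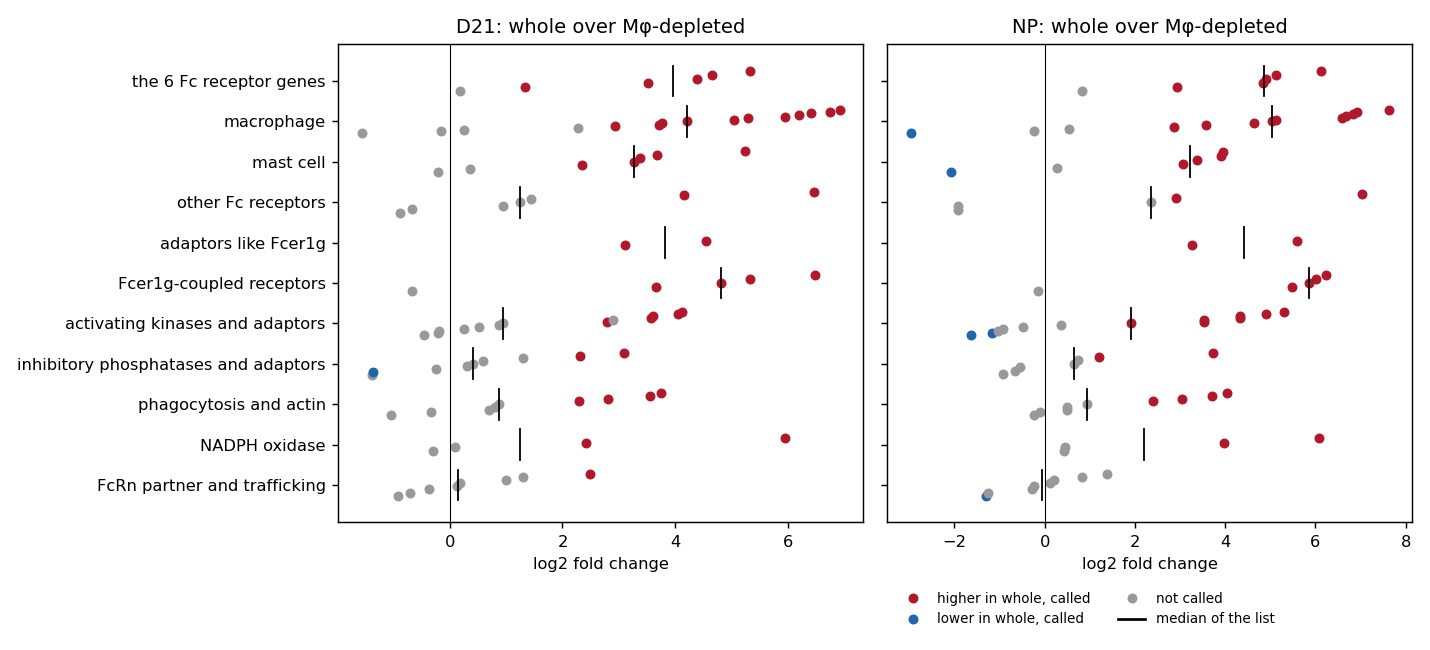
Log2 fold change of whole over Mφ-depleted cervix (horizontal axis) for each tested gene of the 6 Fc receptor genes and of 10 gene lists, in D21 (left) and NP (right). Red points were called higher in whole cervix, blue points lower and grey points neither, and black bars are list medians, with fitted values also where no depleted array was well above background. Genes of the macrophage, adaptor and Fcer1g-coupled lists lie mostly to the right, and those of the FcRn list lie around 0.

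The genes whose pattern over the 12 arrays lay closest to each Fc receptor gene were found by the root mean square of the difference between levels, each gene centred on its own mean, among 10462 genes. This is a description, and the 12 arrays share the contrast of whole and depleted preparations. Closest to Fcer1g were Aif1 (0.18 on the log2 scale), a calcium-binding protein of macrophages, then Tyrobp, Cd37, Ms4a6bl1 and Kcnmb1. Closest to Fcgr1a were Tyrobp (0.273), Ms4a6bl1, Fcer1g, Clec4a1 and Aif1. Tyrobp, Ms4a6bl1 and Aif1 were thus among the nearest of both genes.

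Closest to Fcgr2b was its relative Fcgr2al1 (0.281), well ahead of Fhl1 (0.543), Hspb8, C1qb and Spi1. The probes of these relatives shared no run of more than 9 bases, but their match to each other's transcripts was not tested. Closest to Fcgr3a were Ms4a7 (0.483), Lyve1, Lmod1, Igsf6 and Kcnmb1. Since 6 of its 12 values were not well above background, the order of these genes is uncertain. Kcnmb1, a gene of smooth muscle, was also among the nearest of Fcer1g. The nearest genes of Fcgr2a were Rasal3 (0.43), Slc29a1, Gpsm3, Hspb6 and Fut4, at nearly equal distances and against a spread of 1.24 for the gene itself. Fcgrt varied little, with a spread of 0.482, and its nearest were C7h22orf23 (0.196), Renbp, Tmem243, Smpdl3a and Nek7.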

How the data were processed

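Cervix cells of 12 rats were hybridised to 1-colour Agilent rat arrays, 3 rats in each of 4 groups taken from the sample titles. The authors deposited scanner output of Agilent Feature Extraction 9.5.3.1 (background-corrected intensity per spot) and a table holding the ratio of each intensity to the array's 75th percentile. The ratio table was linear and not centred by gene, with column medians of 0.08 to 0.12. Here control and outlier spots were left out, spots of a probe averaged, and log2 intensity was taken relative to the array's 75th percentile. The brightest probe stood for a gene. Testing required a signal well above background in all 3 rats of 1 or both groups compared. Gene names came from the array, updated through RefSeq for 17328 of 30367 probes. limma 3.58.1 (R 4.3.3) fitted group means over all 12 arrays, with Benjamini-Hochberg adjustment over all genes tested. A call needed an unadjusted p under 0.01 and a 2-fold change. With 3 rats against 3, an exact permutation test cannot go below 0.1. Alternatives were the methods' t-test (Welch, on the same values and rats), other background corrections, scalings and filters, slide or scan day as a block, array weights, the deposited ratio table, and leaving out each rat. A "lower bound" fold raised each dim reading to the lowest signal that was well above background on its array, where the reading lay under that signal. Dim readings above that signal were kept as read, so these folds are approximate bounds. The fit was checked on simulated data. The named genes were, by rule, the 6 members, set genes of the pathway and marker lists, and the 5 genes nearest each member in pattern. Some genes that the rule names are not reported here. Fcgr2al1 and further list genes were added as examples after their values were seen. The members and lists were chosen with earlier results of these data known. Figures used matplotlib 3.10.9.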

Additional observations from a re-analysis of the deposited data

How the results depend on the processing

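No paired analysis was possible because the groups compared share no rat numbers that would pair them. With 5 of 6 genes called in each depletion comparison, the number in D21 was 3 by the methods' t-test, 1 by that test with adjusted p, and 3 when genes had to be well above background on every array, where the number in NP was 2. That filter drops genes lost after depletion by its construction. In the comparison of depleted groups, with 2 called, the number was 0 by the methods' t-test with or without adjustment, with adjusted p, with only the groups compared, with normexp, with no filter and on the third scan day alone, where each depleted group is 1 array and its spread is assumed to be that of the whole arrays, so that this 0 says little. It was 1 with quantile normalization, with the percentile over detected probes, with the every-array filter, with array weights, with either block and without the depleted arrays of the third day, and 0 to 2 when 1 rat was left out. The number of genes whose change differed between D21 and NP, 0 in the report, was 2 with array weights, 2 with slide as a block, 1 without the depleted arrays of the third day, and 0 to 2 when 1 rat was left out. The 2 settings on the third scan day were chosen after seeing the data. Signs turned only in uncalled differences. For D21 against NP whole cervix, Fcgr3a gave 0.11 with normexp, 0.10 without NP whole rat 10 and 0.05 without D21 whole rat 5. Fcgrt gave -0.07 with normexp and -0.03 without NP whole rat 10. Leaving out 1 rat moved these differences over -0.19 to 0.10 for Fcgr3a, -0.03 to 0.42 for Fcgrt and -0.48 to 0.25 for Fcgr2b. Fcgr2b gave 0.01 without NP whole rat 8, 0.25 without rat 10 and 0.02 without D21 whole rat 7. For the depleted groups, Fcer1g gave -0.08 with the percentile over detected probes, -0.09 without NP rat 7, 0 without D21 rat 1, -0.27 without D21 rat 2, the lowest of a range that reached 0.52, and -0.45 on the third scan day. The difference of changes for Fcgr3a gave -0.88 with normexp, -0.30 with slide as a block and -0.03 without D21 depleted rat 1, with a highest value of 0.78 when 1 rat was left out. The causes were not tested. Over all settings, 720 values of single genes kept their direction and call, 53 lost the call, 14 gained one and 16 turned. The number of arrays, 3 per group, limits the precision.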
